A study of Mus musculus with 8 samples.

Results

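The subject is the set of Argonaute-bound RNA clusters in mouse 3' UTRs that hold a match to the seed of miR-181. A cluster was taken where the authors' table names a 3' UTR gene for it and gives at least 1 match in the miR-181a-5p column. This held for 684 of the 9284 3' UTR clusters, or 7.37% (95% Wilson interval 6.85 to 7.92), in a table of 70142 clusters. The rule uses annotation and sequence and no read count.

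The study carried out FLAG-Ago HITS-CLIP, in which RNA is crosslinked by UV light to a tagged Argonaute protein, immunoprecipitated and sequenced, in order to find miRNA seed targeting in Camk2a neurons. The 5 libraries numbered 1, 2a, 2b, 3a and 3b came from animals with both Camk2a-cre and Rosa-Stopfl/fl-Flag-Ago2, where the Camk2a promoter drives Cre, which removes a stop and lets Flag-Ago2 be made from the Rosa26 locus. The 3 control libraries came from Rosa-Stopfl/fl-Flag-Ago2 mice, which carry the same allele without Cre. All mice were 8 to 14 weeks old, the tissue was forebrain, and the work was done in 3 experiments. The deposited table gives 1 pooled read count per cluster, 1834586 reads in all, and separates neither libraries nor groups. No value therefore carries a replicate error or a comparison with the control mice, and the level in control mice cannot be set beside any value. Intervals cover counting error only.

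An Argonaute protein holds a miRNA and presents its seed, the bases near the 5' end, for pairing with messenger RNA, and pairing in a 3' UTR usually lowers the stability or translation of that RNA. The miR-181 family is expressed in the nervous and immune systems, and its best known roles are in tuning T cell receptor signalling and, in neurons, in regulating glutamate receptor and survival genes. A match is graded by the bases next to the core, since pairing at base 8 and an adenosine opposite base 1 both make a site more effective.

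The mature miRNAs of the family are shown because they decide what a match can say. They are RefSeq entries, given 5′ to 3′ with the seed, bases 2 to 8, in capitals.
miR-181a-5p: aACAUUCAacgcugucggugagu
miR-181b-5p: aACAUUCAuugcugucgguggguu
miR-181c-5p: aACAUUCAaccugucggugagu
miR-181d-5p: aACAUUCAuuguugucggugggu
All 4 share the seed ACAUUCA, and their 4 columns in the table are identical in every cluster. The members of the family therefore cannot be told apart here, and a match is to the family. The table's match is the 6-mer GAATGT, the complement of miRNA bases 2 to 7, overlapping the cluster by at least 1 base. Counted in GENCODE transcript sequence, it gave the table's own number in 8333 of 8333 3' UTR clusters that could be read in full. A 7-mer m8 is TGAATGT, a 7-mer A1 is GAATGTA and an 8-mer is TGAATGTA.

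The deepest 8-mer clusters are shown next, because these hold the longest match to the seed. Each line gives 30 bases of a 3' UTR on mm10, read 5′ to 3′ on the strand of the gene, with the 8-mer in capitals.
Usp12 (chr5:146736355-146736384, minus strand): tcaagtggtatgacagtggcTGAATGTAac
Med25 (chr7:44877387-44877416, minus strand): ggatattcacgaacagctccTGAATGTAta
Zfp449 (chrX:56365510-56365539, plus strand): ccagtaacatgggaggagtcTGAATGTAga
Hcn2 (chr10:79736002-79736031, plus strand): ctgggtccccgccgtcgccaTGAATGTAct
Tada2b (chr5:36474005-36474034, minus strand): actgttttaaaacaccataaTGAATGTAta
St6galnac5 (chr3:152821679-152821708, minus strand): tatgagccttcaggacccgaTGAATGTAca
Ankrd52 (chr10:128393725-128393754, plus strand): ataggactgctgaaaaccacTGAATGTAca
Gigyf1 (chr5:137527505-137527534, plus strand): ggagagactcctgttgtgacTGAATGTAac
Sowaha (chr11:53477604-53477633, minus strand): agtaactattgtgagcctaaTGAATGTAac
Kmt2c (chr5:25273279-25273308, minus strand): ccagggtgggggccttcctaTGAATGTAag
Read depth in these 10 clusters ran from 468 reads for Usp12, a deubiquitinating enzyme, to 80 for Kmt2c, a histone H3 lysine methyltransferase. The cluster of Med25, a subunit of the Mediator complex, had 339 reads, and that of Zfp449, a zinc finger protein, had 225. Hcn2, a hyperpolarization-activated channel, had 132, and Tada2b, an adaptor of histone acetyltransferase complexes, had 114. St6galnac5, a sialyltransferase of ganglioside synthesis, had 94, and Ankrd52, a regulatory subunit of a protein phosphatase that acts on Argonaute, had 93. Gigyf1, a partner of a cap-binding translational repressor, had 87, and Sowaha had 83.

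The Usp12 and Med25 clusters differ in what else they hold. The Usp12 cluster is 113 bases wide, has its 8-mer 3.5 bases upstream of the cluster middle and matches none of the other brain miRNA families considered. It also has the letters GACA upstream of the seed match, which can pair with bases 13 to 16 of miR-181a. The Med25 cluster is 361 bases wide, its 8-mer lies 120.5 bases upstream of the middle, and it also matches 10 other brain families. Reads of the Med25 cluster cannot be divided among these families.

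Most member clusters held a single match. One match was found in 652 clusters, 2 in 31 and 3 in 1, for 717 in all. The cluster with 3 matches was in Prrg3, with 82 reads. Among the next clusters by matches and reads, each with 2, were Zfp449 with 225 reads, Foxo3, a transcription factor of insulin signalling, with 160, Scn4b, an auxiliary sodium channel subunit, with 137, and Arl8b, a lysosomal small GTPase, with 97. Matches located in the same cluster formed 32 neighbouring pairs. The starts of a pair were 6 to 371 bases apart with a median of 58, and 9 pairs were 8 to 40 bases apart, among them the Zfp449 pair at 22 bases. Clusters with 2 or more matches had a median of 30.5 reads (95% interval 17 to 49) and a median width of 197.5 bases, against 23 reads (21 to 25) and 165 bases with 1 match. The intervals of reads overlap.

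Depth differed little between members and the other 3' UTR clusters, and the difference moved with cluster width. Members ranged from 10 to 468 reads with a median of 23 (95% interval 21 to 25) and quartiles of 15 and 39.25. The other 8600 clusters ranged from 10 to 5730 with a median of 21 (21 to 22) and quartiles of 14 and 34. Members were wider, at a median of 168 bases (160 to 175) against 143 (141 to 144). Per 100 bases the order turned, with a median of 14.1 reads in members and 14.4 in the others. Among clusters 80 to 200 bases wide the ratio of the medians was 1.00. Over 300 bases, the medians were 47 reads in 68 members and 42 in 419 other clusters. Of these, 16.2% and 9.31% had at least 100 reads. Together the members held 7.91% of the 3' UTR reads.

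The share of clusters with a match was highest in the widest and in the deepest clusters. It was 4.50% among clusters of at most 100 bases and 14.0% among those over 300 bases. By reads it was 6.29% (5.42 to 7.29) in clusters of 10 to 14 reads, 8.92% (7.78 to 10.2) in those of 34 to 99 and 11.6% (8.20 to 16.2) in those of at least 100. Deep clusters are wider, at a median of 184.5 bases for the deepest class and 133 for the shallowest, and the part of width in this difference was not tested. Matches per kb of cluster changed less, from 0.451 in the shallowest class to 0.572 in the deepest, with 0.425 between them in clusters of 21 to 33 reads.

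**Figure D1:**
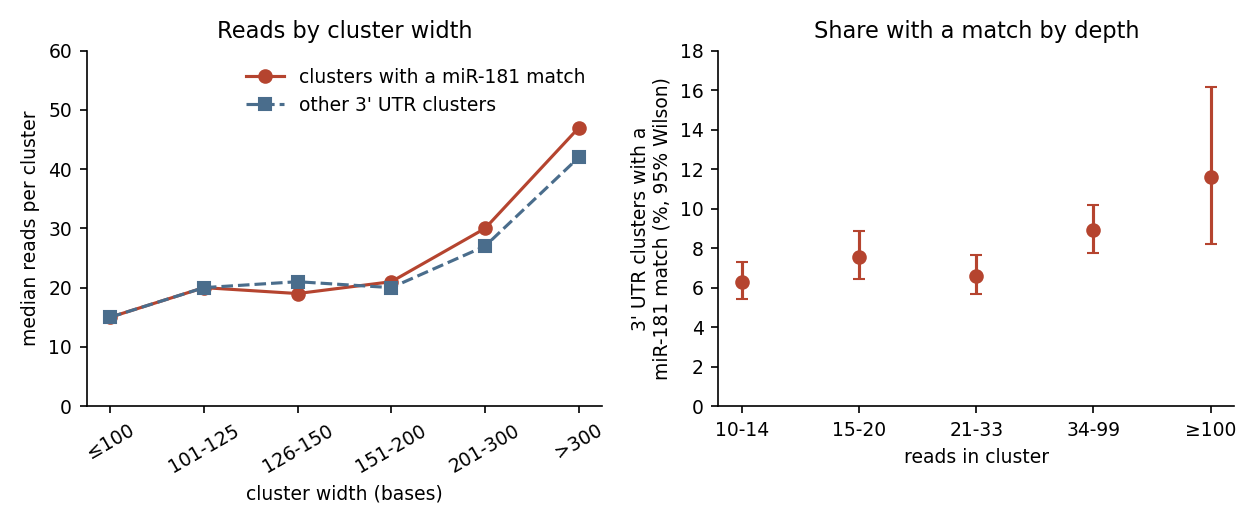
Left, median reads per cluster (linear axis) against cluster width in bases for clusters with a miR-181 match and other 3' UTR clusters. Right, percentage of 3' UTR clusters with a match by reads in the cluster, with 95% Wilson intervals; at equal width the medians lie close together (30 and 27 reads over 200 and up to 300 bases wide), while the share with a match goes from 6.29% to 11.6% with depth.

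The rule has its threshold at 1 match, and the clusters next to it are those whose match sits at the border. A match crossing the cluster edge occurred in 29 members, with a median of 18 reads and 128 bases. Among the other clusters, 133 had a match within 40 bases of the cluster but not touching it, with a median of 21 reads and 139 bases.

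The 15 deepest members were led by the Usp12 and Med25 clusters. Next came Gsk3b, a kinase of Wnt and insulin signalling, with 256 reads, Fads1, a fatty acid desaturase, with 248, and Zfp449 with 225. Epb41l1, a neuronal protein of the membrane skeleton, had 204 reads, Mepce, which caps 7SK RNA, had 194, and Zwint, a kinetochore protein, had 179. Foxo3 had 160 reads, AW549877 had 157, Nrep had 155 and Slc20a1, a phosphate transporter, had 151. Map1a, a microtubule-associated protein, had 150, Tnk2, a tyrosine kinase, had 147 and Khsrp, an RNA-binding protein of mRNA decay, had 145. The deepest member ranked 17 among all 3' UTR clusters.

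Every class of match was present among these 15. Of the clusters, the best match was an 8-mer in 3, a 7-mer m8 in 4, a 7-mer A1 in 1 and a 6-mer in 7. Windows from 4 of them show what the weaker classes look like, with the matched bases in capitals.
Gsk3b (chr16:38241940-38241969, plus strand): tgactgactgaatcatgaaaaGAATGTtcc
Fads1 (chr19:10196586-10196615, plus strand): gacattgagtgacaagcctcaGAATGTtac
AW549877 (chr15:3983242-3983271, minus strand): tacaggcttttagtggaggaaGAATGTAca
Map1a (chr2:121308608-121308637, plus strand): ttactgcgtcccacaatatcTGAATGTctc
The Gsk3b and Fads1 windows hold the 6-mer alone, Map1a has the further T of a 7-mer m8, and AW549877 has the A of a 7-mer A1. The Gsk3b match lay 183.5 bases upstream of the middle of a cluster 475 bases wide, which also matches miR-29, miR-124, miR-26, miR-137 and miR-34.

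To compare matches inside clusters with matches that were not in a cluster, the rest of the same 3' UTRs was searched. The 3' UTRs of 4578 genes gave 1350 kb inside 3' UTR clusters and 10694 kb outside every cluster. The miR-181 6-mer occurred 639 times inside, 0.473 per kb, and 3791 times outside, 0.355 per kb, a ratio of 1.34 (95% interval 1.23 to 1.45). Among 29 brain families with a RefSeq sequence, this ratio ranked 5, after miR-29 at 1.99, miR-128 at 1.86, miR-99/miR-100 at 1.86 and miR-27 at 1.61. Of 11 families of other tissues with a sequence, miR-205, an epithelial miRNA, was also above it at 1.45 (1.34 to 1.57), and miR-223, a myeloid miRNA, stood at 1.23 (1.11 to 1.36). The other 6-mers made of the same bases gave a pooled ratio of 0.976. Of these 89 6-mers, 1 was at or above the miR-181 ratio, TGTAGA at 1.58. Divided by the pooled ratio of the 6-mers of its own bases, miR-181 stood at 1.37, below miR-128 at 1.74, miR-27 at 1.50, miR-29 at 1.48, miR-101 at 1.41, miR-26 at 1.41 and miR-132/miR-212 at 1.40. On that scale, miR-205 stood at 1.08 and miR-223 at 1.26, both below miR-181. These values are descriptions of where matches lie, with no test of the difference.

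The ratio differed by class of match, and the base after the match went with it more than the base before it. The 8-mers had a ratio of 1.71 (1.35 to 2.17), from 82 inside and 380 outside. The 7-mer A1 matches had 1.63 (1.33 to 2.00), from 111 and 539. The 6-mers had 1.33 (1.18 to 1.51), from 300 and 1782, and the 7-mer m8 matches had 1.06 (0.894 to 1.26), from 146 and 1088. The interval of the 7-mer m8 matches does not meet those of the 8-mers and 7-mer A1 matches. For the same-base 6-mers with the same neighbouring letters, the pooled ratios were 0.857 with the bases of an 8-mer, 0.907 with those of a 7-mer m8, 0.972 with those of a 7-mer A1 and 1.03 with neither.

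Compared with the other families, the 8-mers of miR-181 stood lower than its 6-mer ratio did. By the ratio of 8-mers, miR-181 ranked 16 of the 29 brain families, between miR-103/miR-107 at 1.72 and miR-138 at 1.55. The leading values were 3.43 for miR-132/miR-212, 3.39 for miR-29, 2.73 for miR-128 and 2.73 for miR-27.

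**Figure D2:**
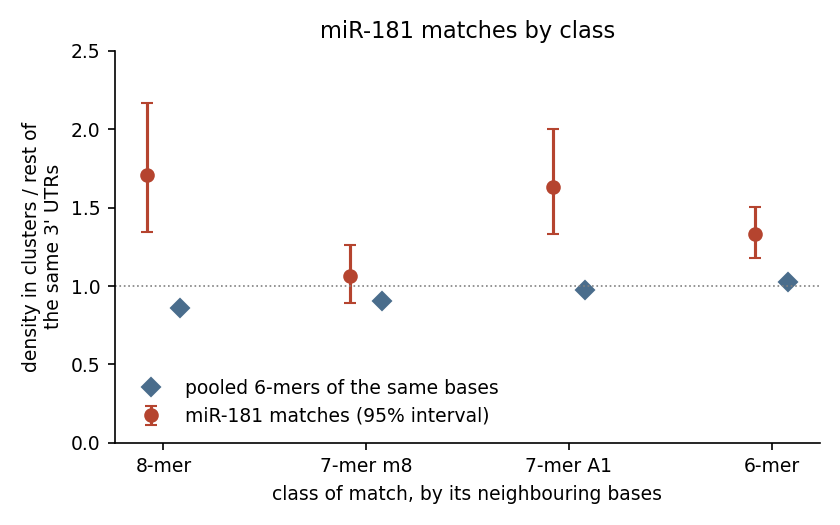
Density of miR-181 matches in clusters divided by density in the rest of the same 3' UTRs (linear axis), by class of match, with 95% intervals from counting; diamonds are the pooled other 6-mers of the same bases with the same neighbours. The 8-mers and 7-mer A1 matches sit at 1.71 and 1.63, the 7-mer m8 matches at 1.06, and the diamonds between 0.857 and 1.03.

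The class of match did not go with depth within the members. Counting each of the 655 members with a located match by its best match, 83 held an 8-mer, 156 a 7-mer m8, 107 a 7-mer A1 and 308 a 6-mer, and 1 had a match whose neighbouring bases could not be read. Median reads were 24 (20 to 30) for 8-mers, 23 (19 to 29) for 7-mer m8, 23 (19 to 28) for 7-mer A1 and 23 (21 to 25) for 6-mers. The 4 intervals overlap, and median widths were 161 to 172 bases.

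Matches were denser within 50 bases of cluster middles than 75 to 100 bases away. Per kb, their density was 0.332 from 100 to 75 bases upstream of the middle, 0.559 from 50 to 25 upstream, 0.494 in the 25 bases before the middle and 0.486 in the 25 after. It was 0.527 from 25 to 50 downstream and 0.262 from 75 to 100 downstream, against 0.355 in the rest of the 3' UTRs. The mean of the same-base 6-mers stayed between 0.214 and 0.256 per kb. The density of miR-181 matches over that mean was between 1.97 and 2.18 in the 4 central bins. From 50 to 75 bases it was 1.74 upstream and 1.90 downstream. In the outermost bins it was 1.55 and 1.18, and in the rest of the 3' UTRs 1.44. All 3' UTR clusters had a median width of 144 bases, and the outermost bins lie beyond the edges of clusters that narrow. Place within a cluster and lying outside it are therefore not separated in those bins. Of 687 located matches, 256 (37.3%) were within 25 bases of the middle and 398 (57.9%) in the central 50% of the cluster. A uniform spread gives 50% for the latter, and no such share was worked out for the 25-base distance. Upstream and downstream were equally filled, with 342 and 343 matches.

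**Figure D3:**
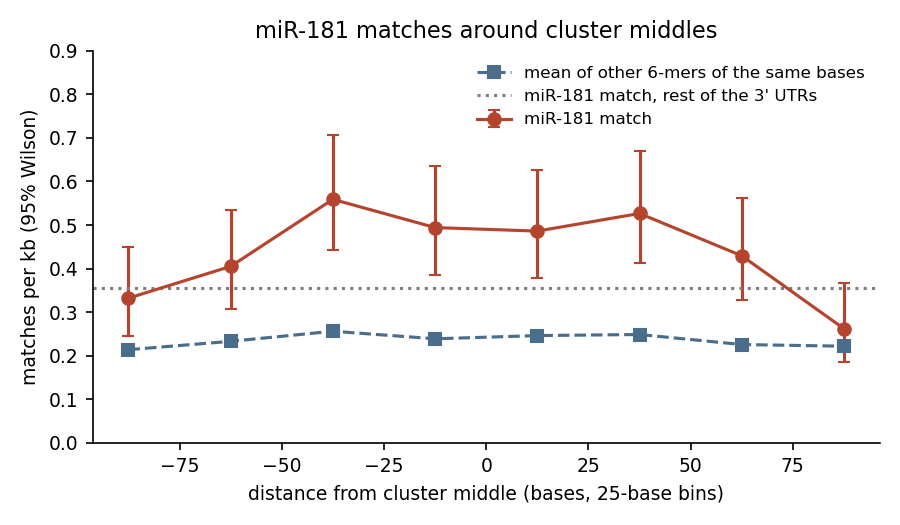
Matches per kb (linear axis, 95% Wilson intervals) in 25-base bins of distance from the middle of 4938 3' UTR clusters; the dashed line is the mean of the other 6-mers of the same bases and the dotted line the miR-181 density in the rest of the 3' UTRs. The density of miR-181 matches is 0.486 to 0.559 within 50 bases of the middle and 0.332 and 0.262 in the outermost bins. The outermost bins lie beyond the edges of the narrower clusters.

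Sequence around the matches was less rich in A and U inside clusters than outside. The 30 bases on each side had a median A+U content of 55% inside and 60% outside, while all 3' UTR bases stood at 52.1% inside clusters and 56.5% outside. Member clusters as a whole had a median A+U content of 55.0% (quartiles 49.8 and 60.8) against 51.4% (45.7 and 57.7) in the other clusters, and the match itself has more A and T than G and C. The letters GACA, complementary to the supplementary region of miR-181a, were found in the 15 bases upstream of 40 of 639 matches inside clusters, 6.26% (4.63 to 8.41), and of 160 of 3789 outside, 4.22% (3.63 to 4.91). These intervals overlap.

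Compared with other clusters, members began farther from the stop codon and lay more often in the last 25% of the 3' UTR. This was not tested. Their 3' UTRs had a median length of 3120 bases against 2856, and members began a median of 1268 bases from the stop codon against 1005. The last 25% of the 3' UTR held 24.8% of members and 20.4% of other clusters, and the first 25% held 28.8% and 30.4%. A CDS gene was also named for 76 members (11.1%, against 16.4% of the others), an intron for 77 (11.3% against 10.6%) and a circRNA for 31 (4.53% against 4.47%). Across the table, the 6-mer was as dense in intron clusters, at 0.489 per kb, as in 3' UTR clusters, at 0.467, and less dense in CDS clusters, at 0.361, and 5' UTR clusters, at 0.183.

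The 684 members belonged to 626 genes, 12.9% of the 4863 genes with a 3' UTR cluster. Of these, 575 had 1 member cluster, 44 had 2 and 7 had 3 or more. In 187 genes all 3' UTR reads lay in member clusters. Of the genes with a member, 183 had a single 3' UTR cluster, where this holds by definition. The share of genes with a member went with the number of 3' UTR clusters, from 6.73% of genes with 1 cluster and 15.0% of those with 2 to 22.1% with 3 to 5 and 47.8% with 6 or more. A gene with many clusters therefore has more chances to be counted, which bears on every count of genes below.

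The gene with the most member clusters was Snhg14, with 5 of its 13 3' UTR clusters and 133 of 247 reads. GENCODE lists Snhg14, the long RNA that runs antisense to Ube3a, as a processed transcript, so that its 3' UTR label is the table's. Slc8a1, the plasma membrane sodium-calcium exchanger, had 4 of 20, with 103 of 576 reads. Celf1, a regulator of splicing and decay, had 3 of 10 and 197 of 321 reads, or 61.4%. Gas7, an actin-linked protein of neurite growth, had 3 of 9, the zinc finger gene Zfp704 had 3 of 11, and Trim2, a neuronal ubiquitin ligase, had 3 of 8. Tnrc6b, a GW182 protein that joins Argonaute to mRNA decay, had 3 of 22 and only 63 of 1112 reads. Atp1b1, the beta subunit of the sodium pump, had 2 of 3, with 227 of 295 reads, Scn4b had 2 of 7, and both clusters of Slc20a1 were members.

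Genes reported as miR-181 targets in other systems were present in the set, mostly at low depth. Of 24 such genes, 14 had a 3' UTR cluster and 6 of these a member, and 7 of the list's 36 clusters (19.4%) were members, against 7.37% of all 3' UTR clusters. The list was compiled from general knowledge and is not complete. Genes are often reported as targets because their 3' UTR holds a seed match, and that match also defines a member. A share above that of all clusters is therefore built in to an unmeasured degree and is no support for targeting here. Cbx7, a Polycomb protein, had 2 member clusters with 67 and 11 reads, each with an 8-mer. Dusp6, a phosphatase of ERK, had 20 reads, and Mcl1, a survival protein of the BCL2 family, had 16 with 2 matches. Gria2, an AMPA receptor subunit, had 12 reads, Hspa5, a chaperone of the endoplasmic reticulum, had 12, and Atm, a DNA damage kinase, had 10. All but the deeper Cbx7 cluster were thus below the members' median of 23 reads.

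The Cbx7, Atm and Gria2 matches are shown as the 8-mers of this list and its glutamate receptor. The matched bases are in capitals, and the Gria2 match is a 7-mer m8.
Cbx7 (chr15:79915989-79916018, minus strand): cgagctttgttcagacgaccTGAATGTAtt
Gria2 (chr3:80688569-80688598, minus strand): cgtgagtcctggcatgggaaTGAATGTcag
Cbx7 (chr15:79916296-79916325, minus strand): aacccctccccctgcatattTGAATGTAga
Atm (chr9:53439247-53439276, minus strand): atgggaatccctcattagaaTGAATGTAgg
The Gria2 cluster began 194 bases from the stop codon and also matches miR-124. It held 12 of the 86 reads of the 4 Gria2 3' UTR clusters.

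Among the other lists, those of calcium signalling, postsynaptic scaffolds and voltage-gated channels had the most member clusters. In the calcium list, 10 of 21 genes with a 3' UTR cluster had a member, and 15 of its 124 clusters (12.1%) were members. Atp2b2, a plasma membrane calcium pump, had 2 member clusters with 105 reads, Slc8a1 had 4 with 103, and the list's kinases with a member included Camk2a with 42 reads. Of the postsynaptic scaffold and adhesion genes, 7 of 17 had a member, and 9 of 56 clusters (16.1%) were members, led by Cadm2, a cell adhesion molecule, with 63 reads. Among voltage-gated channels it was 7 of 22 genes and 8 of 79 clusters (10.1%), led by Hcn2 and by Kcnq5, an M-current potassium channel, with 67 reads. The intervals of these shares of genes, 28.3 to 67.6, 21.6 to 64.0 and 16.4 to 52.7%, lie above the 12.9% of all genes, but the lists hold genes with several clusters each. Among all genes, 22.1% of those with 3 to 5 clusters and 47.8% of those with 6 or more had a member. Whether the number of clusters accounts for the higher shares of these lists was not tested. Their shares of clusters, beside 7.37% of all 3' UTR clusters, were given no interval. The 10.1% of the channel list was below the 11.1% of axon guidance clusters.

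The other functional lists lay on both sides of the 7.37% of all clusters, with few members each. For glutamate receptors, 4 of 41 clusters (9.76%) were members, in Grik2, a kainate receptor subunit, with 45 reads, Grin2b, an NMDA receptor subunit, with 44, and Gria2. For presynaptic release it was 4 of 75 (5.33%), led by Unc13a, a vesicle priming factor, with 28 reads and Vamp1, a vesicle SNARE, with 22. For trafficking it was 6 of 67 (8.96%), led by Rab3c with 89 reads and Ap1g1, an adaptor subunit, with 45. For axon guidance it was 4 of 36 (11.1%), led by the receptors Epha4 with 28 and Plxna2 with 19. A single member was found in cAMP signalling, the cyclase Adcy9 with 33 reads, of 65 clusters. Likewise the Ras and MAP kinase list of 49 clusters had only Rasgrp1, a Ras exchange factor, with 15, and the phosphatase list of 35 clusters had only Dusp6.

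Regulators of RNA and chromatin lay in the same range. RNA-binding regulators had 6 of 90 clusters (6.67%), led by Celf1 and by Celf2 with 65 reads. The miRNA pathway had 3 of 45, all of Tnrc6b. Transcription and chromatin regulators had 5 of 58 (8.62%), led by Kmt2c with 80 reads and Cbx7 with 78, and ubiquitin ligases and deubiquitinases had 6 of 58 (10.3%), led by Trim2 with 55 reads and Fbxo32 with 17. Fbxo32, a muscle atrophy ligase, had 3095 3' UTR reads in all, so that its member held a very small part of them. The BCL2 family list had only Mcl1, in 9 clusters.

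**Figure D4:**
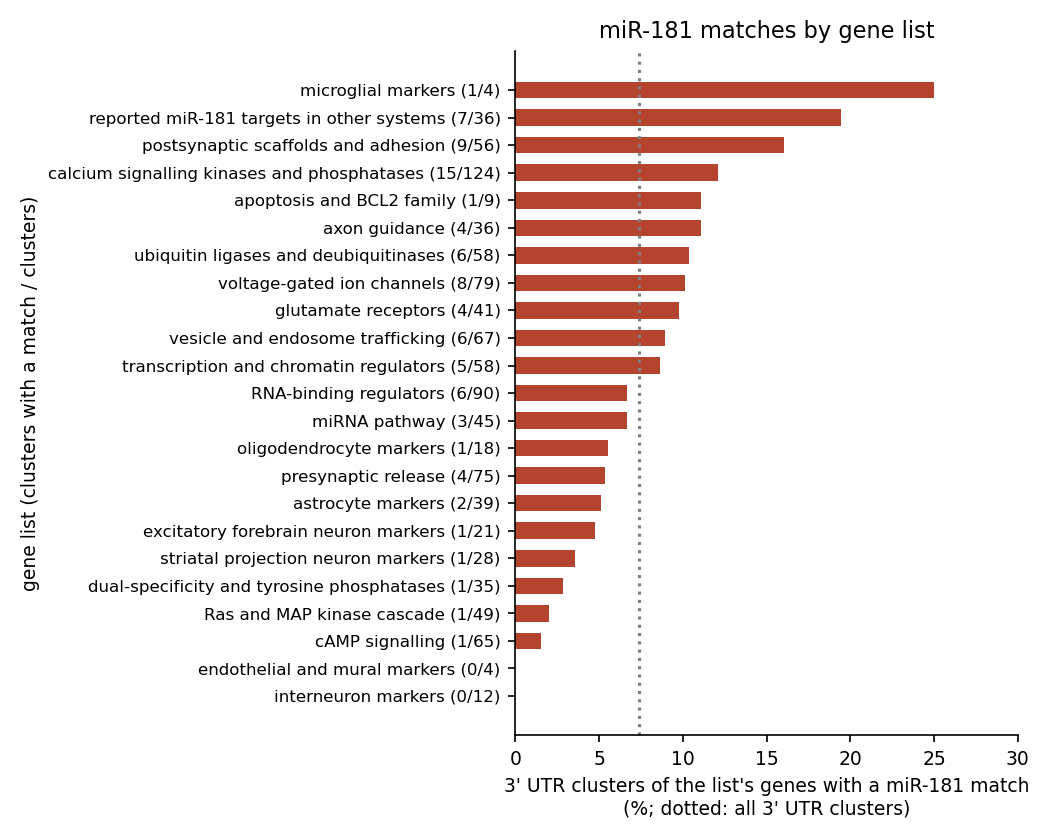
Percentage of the 3' UTR clusters of each list's genes that hold a miR-181 match (bars from 0), with clusters with a match over all clusters in brackets; the dotted line is 7.37%, the share of all 3' UTR clusters. The reported targets reach 19.4%, where the same seed match helps to define both the list and the members. The postsynaptic list is at 16.1%, the microglial bar rests on 4 clusters, and cAMP signalling is at 1.54%.

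Markers of cell types were checked because the label names Camk2a neurons. Excitatory forebrain neuron markers had 3' UTR clusters in 8 of 12 genes, striatal projection neuron markers in 9 of 12 and interneuron markers in 6 of 12. Astrocyte markers had them in 11 of 12, oligodendrocyte markers in 9 of 14, microglial markers in 3 of 12 and endothelial and mural markers in 4 of 12. Members among these were Camk2a with 42 reads, the dopamine receptor Drd1 with 45, the glutamate transporter Slc1a2 with 146 in 2 clusters, Ermn of oligodendrocytes with 13 and the integrin Itgam of microglia with 10. These were 1 of 21 clusters of excitatory markers, 1 of 28 striatal, 2 of 39 astrocyte, 1 of 18 oligodendrocyte and 1 of 4 microglial clusters. None of the 12 interneuron and 4 endothelial and mural clusters was a member, and at a share of 7.37% so few clusters tell nothing of these cell types. Since the table pools the libraries, RNA of tagged neurons and RNA from other cells in the same table cannot be told apart, nor can fewer cells of a type and less RNA per cell.

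Other miRNA families were compared by how often their 6-mer shared a cluster with a miR-181 match. Members matched a mean of 2.20 other brain families and other clusters 1.89. Between 80 and 200 bases of width the means were 1.69 and 1.59. The counts of families here include those whose letters overlap the miR-181 match, such as miR-23. Between those widths, miR-23 alone was matched in 14.5% of members and 4.99% of other clusters. The means were not worked out without such overlaps. No other brain family was matched in 117 members (17.1%), against 19.5% of other clusters. Those 117 had a median of 20 reads and 125 bases, and members with another family 25 reads and 177 bases. After Usp12, the deepest of them were a cluster of Sept8, a septin that the table lists under a date-like name, with 117 reads, and those of Prrg3 with 82 and Purb, a DNA- and RNA-binding protein, with 74.

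The largest difference came from overlap of letters. The miR-23 6-mer was in 15.8% of members (13.2 to 18.7) and 5.91% of other clusters, but 4 of its letters are shared with the end of the miR-181 6-mer. With matches that overlap a miR-181 match left out, the share was 5.41% in members and 5.80% in the others. For miR-221/miR-222, 8.19% of members and 4.94% of others became 6.39% and 5.04%.

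Some families with at most 1 letter of such an overlap were also more frequent in members, and they were not only brain families. For miR-200b/miR-429, a family of epithelial cells, the share was 6.87% (5.21 to 9.02) against 3.73%, and between 80 and 200 bases of width 5.51% against 3.25%. For miR-25/92 the share was 5.99% (4.45 to 8.03) against 3.33%, for miR-134 6.43% (4.83 to 8.53) against 4.03% and for miR-137 4.97% (3.58 to 6.87) against 3.19%. For miR-25/92 and miR-134 the difference held between 80 and 200 bases, at 4.85% against 2.83% and 5.29% against 3.32%. For let-7/98 it was 6.43% against 3.99% in all clusters and 3.30% against 3.29% between those widths. Over all 47 families compared, 34 had a higher share in members, 23 had more matches per kb, and for 14 the share in other clusters lay outside the members' interval. Of the 23, 12 were among the 29 brain families and 11 among the 18 of other tissues. All these counts include families with a longer overlap with the miR-181 match, such as miR-23, miR-221/miR-222 and miR-194.

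Next come the 4 brain families with a ratio of densities, inside clusters over outside, above that of miR-181. Over clusters of all widths, their share in other clusters lay inside the members' interval. miR-128 was matched in 12.7% of members (10.4 to 15.4) and 13.7% of others, miR-29 in 7.31% (5.59 to 9.51) and 8.76%, miR-27 in 15.4% (12.8 to 18.2) and 13.1%, and miR-99/miR-100 in 1.32% (0.694 to 2.48) and 1.24%. In clusters 80 to 200 bases wide, all 4 shares were lower in members. They were 4.41% against 7.28% for miR-29, 9.91% against 12.3% for miR-128, 10.6% against 11.6% for miR-27 and 0.441% against 1.18% for miR-99/miR-100. These differences were not tested. Over all widths, miR-124, a neuronal miRNA, was matched in 11.7% of members (9.50 to 14.3) and 10.2% of others. Between 80 and 200 bases its share was higher in members, at 10.1% against 7.93%, which was also not tested. Per kb of cluster, miR-29 had 0.400 matches in members and 0.579 in the others, and miR-128 had 0.760 and 0.911. The share for miR-15/16 was 8.48% against 10.4%, within the members' interval of 6.62 to 10.8.

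**Figure D5:**
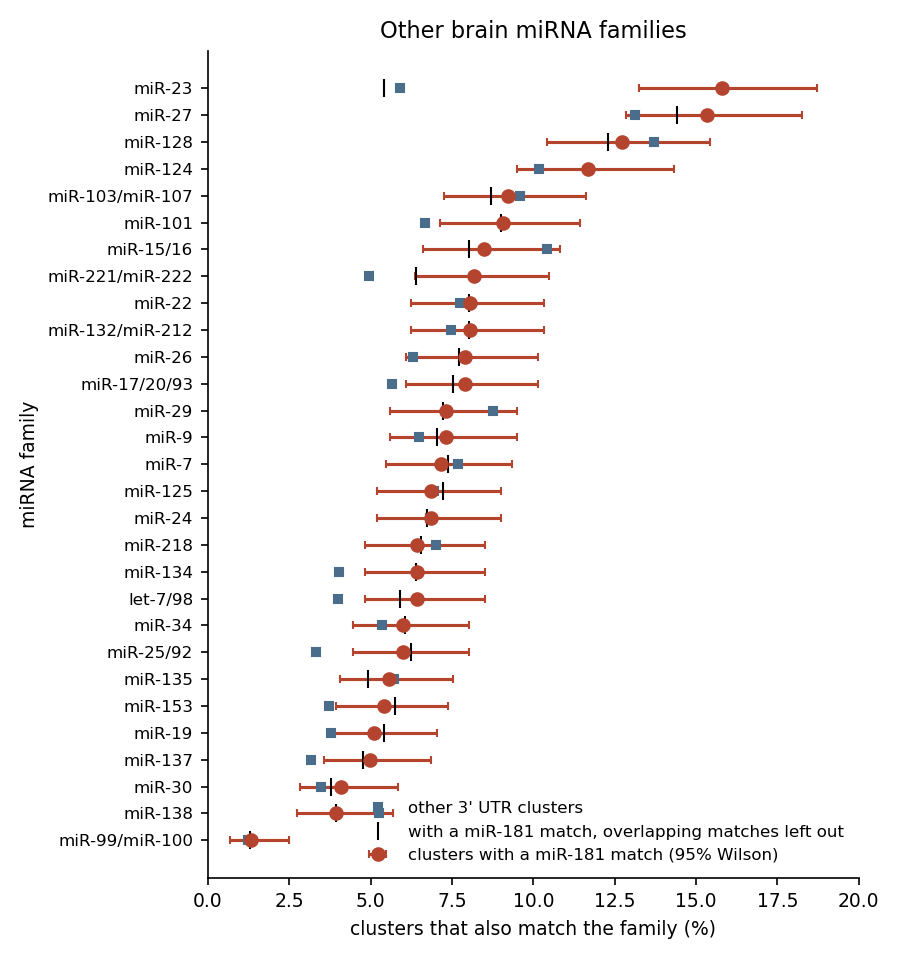
Percentage of clusters that also match each brain miRNA family, for clusters with a miR-181 match (circles, 95% Wilson intervals) and other 3' UTR clusters (squares); ticks leave out matches that overlap a miR-181 match, where a sequence was at hand. The miR-23 tick falls from 15.8% to 5.41%, and miR-128 and miR-29 squares, over clusters of all widths, lie inside the intervals.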

How the data were processed

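Reads were aligned with BWA to mm10, per the submitters' processing notes. The cluster caller, the libraries behind each cluster, whether PCR duplicates were removed and how control libraries were used are steps not given in the sources used here. Per the file headers, the deposited value of a cluster is its read count, a whole number of at least 10 with no normalization named. The 1281 miRNA columns the authors deposited hold numbers of seed matches. No column belongs to a single library (0 of all columns), so no library depth, spread or test was possible, and all values are descriptions.

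A 3' UTR cluster is one with a 3' UTR gene in the table. Starts were shifted to 1-based coordinates. Transcript sequence and 3' UTRs came from GENCODE M21 on the same build; 610 members could be read in full and 655 gave a located match. Mature miRNAs came from the RefSeq table of GRCm38.p6, which matched 40 of 48 families; the others have shares of clusters only. Densities count 6-mer starts inside 3' UTR clusters and clear of every cluster. Shares have 95% Wilson intervals, ratios of densities the interval that the Wilson interval of the inside share gives, and medians an order-statistic interval. Reads were amplified by PCR (15 cycles) with no molecular identifiers named, so intervals cover counting error only. The counting steps were tested on simulated data. Python 3.11.15, pandas 2.3.3, numpy 2.4.6, scipy 1.17.1, statsmodels 0.14.6 and matplotlib 3.10.9 were used.

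The members and the gene and miRNA lists were chosen with earlier results of these data known. Named clusters are the 15 deepest members, the 10 deepest 8-mers, the 5 with the most matches, the 10 genes with the most members, the 2 genes with the most member reads in each list, and every reported target with a member; ties went by symbol. Some results that these rules would name are not reported here. Clusters with no other brain family, the same-base 6-mer and the family values given singly were chosen after their values were seen. Alternatives varied the matches needed, read minimum, width, annotation, placement of the match, read scale and base composition.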

Additional observations from a re-analysis of the deposited data

Results flagged for a closer look

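Outside the 3' UTR clusters, the most miR-181 matches in a cluster were 14, in an intron of Pdgfc, a growth factor gene (chr3:81149952-81150163, plus strand, 212 bases), with 35 reads. The deepest cluster with a match outside 3' UTRs had 3311 reads and 1 match, on the minus strand at chrX:20101526-20101647, where the table names no gene. Apart from the densities per kind of region, these clusters enter no comparison above, and no control level is at hand for them.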

How the results depend on the processing

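Of 21 alternatives, 16 left the value within its own interval or within 1.5 times the count and 5 moved it. The number of members, 684, was 32 with 2 or more matches required and 405 with at least 20 reads. The share of 3' UTR clusters with a match, 7.37%, was 6.42% among clusters 80 to 200 bases wide. The ratio of median reads, members over others, was 1.10 (95% interval 1.00 to 1.19), and with reads per 100 bases it turned to the other side of 1, at 0.979 (0.898 to 1.05). The share of members that match miR-128, 12.7%, was 9.91% among clusters 80 to 200 bases wide, where the others had 12.3%. The cause of these moves was not tested. The ratio of densities stayed between 1.33 and 1.39 over its alternatives; one of these, leaving out clusters that also name CDS, 5' UTR or intron genes, was chosen after seeing the data and gave 1.39. No paired analysis was possible because the table has no column of a single library. Clusters have at least 10 reads, so bound sites below that depth are not seen, and weak binding and low expression of a gene cannot be told apart.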
